A study of Homo sapiens with 6 samples.

Results

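The transcripts described here are those of 10 genes of the amino acid stress response that ATF4 directs: ATF4, DDIT3, TRIB3, CHAC1, ASNS, PSAT1, PHGDH, PSPH, SESN2 and DDIT4. They were matched by gene symbol to the 60609 genes listed in the count files, and all 10 had enough reads to be tested. Their choice was made with earlier results of these data known. RNA was measured in K562 cells, an established human leukaemia line with erythroid features. Their endogenous EP400 carries a homozygous degradation tag (EP400-dTAG). EP400 is the motor subunit of the TIP60 chromatin remodelling and acetyltransferase complex. The cells also express, from the AAVS1 safe harbour site, either exogenous WT EP400 (the WT group, 3 libraries) or exogenous Delta-TRRAP EP400, which lacks the segment that holds the TRRAP module (the Delta-TRRAP group, 3 libraries). Cells of both groups were given 500 nM dTAGV-1, the compound that triggers loss of the tagged protein, for 24 h, so no library stands for untreated or unedited cells. Each complemented line was a single clone derived from the same tagged clone, so the deletion and the clone cannot be told apart, and the replicates carry no variation between clones.

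ATF4 is a basic leucine zipper transcription factor whose production is set largely at translation. When amino acids run short, when the endoplasmic reticulum is stressed or when heme is lacking, the kinases GCN2, PERK, HRI and PKR phosphorylate eIF2 alpha, which slows protein synthesis in general while favouring translation of the ATF4 mRNA. ATF4 then pairs with C/EBP proteins at composite DNA elements and turns on genes that make, import and charge amino acids, together with feedback regulators. Because RNA was counted, the values below are transcript levels and not ATF4 protein or its activity.

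The DNA in front of the genes was read from RefSeq promoter windows (GRCh38.p14), of which the 250 bases upstream of the start were searched on both strands. A window was found for 9 of the 10 genes, PSPH being without one. Some genes have several windows and count when any of them matches, whereas the shares of all windows count each window singly. The core of the composite element, TGATGNAA, was present in the windows of 2 of these 9 genes, CHAC1 and ASNS, and in 3.14% of all 35116 windows. Its stricter form TGATGCAA, which also counts among the matches of TGATGNAA, was present in CHAC1 alone and in 0.772% of all windows. The following 30 bases show both matches, with the element in capitals, because no other window of these genes held one. Whether ATF4 acts through either site was not tested. The CHAC1 stretch lies at chr15:40953251-40953280 on the plus strand and holds the element in reverse complement at position -209 from the start, while the ASNS stretch lies at chr7:97872458-97872487 on the minus strand, with the element at position -68. Both stretches also fall within annotated exons (GENCODE release 44).
CHAC1: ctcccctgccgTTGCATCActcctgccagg
ASNS: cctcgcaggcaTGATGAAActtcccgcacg

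A search for CCAAT, the box bound by NF-Y, was added after the data had been seen. It matched in the windows of 6 of the 9 genes (DDIT3, CHAC1, PSAT1, PHGDH, SESN2 and DDIT4) and in 32% of all windows. As above, a gene counts when any of its windows matches, and the share is of single windows. The upstream sequences of PSAT1, DDIT4 and SESN2 are printed 5′ to 3′ because their transcripts moved to very different extents, as described below, and because they contain no annotated exon. Capitals mark CCAAT or its reverse complement ATTGG. PSAT1 holds 3 boxes, at positions -113, -83 and -52 from the start, DDIT4 holds 2, at -108 and -75, and SESN2 holds 2, at -151 and -86. The stretches lie at chr9:78296875-78297124, chr10:72273674-72273918 and chr1:28259268-28259517, all on the plus strand.
PSAT1: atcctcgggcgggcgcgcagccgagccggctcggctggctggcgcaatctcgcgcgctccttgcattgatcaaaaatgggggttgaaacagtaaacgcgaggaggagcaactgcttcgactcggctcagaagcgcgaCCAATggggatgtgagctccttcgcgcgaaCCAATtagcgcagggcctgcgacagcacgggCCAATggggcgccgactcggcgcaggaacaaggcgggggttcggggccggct
DDIT4: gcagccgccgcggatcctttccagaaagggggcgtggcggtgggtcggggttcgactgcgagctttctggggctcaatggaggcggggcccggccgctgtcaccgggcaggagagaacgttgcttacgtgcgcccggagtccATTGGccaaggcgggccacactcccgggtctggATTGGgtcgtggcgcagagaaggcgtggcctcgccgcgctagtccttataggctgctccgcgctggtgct
SESN2: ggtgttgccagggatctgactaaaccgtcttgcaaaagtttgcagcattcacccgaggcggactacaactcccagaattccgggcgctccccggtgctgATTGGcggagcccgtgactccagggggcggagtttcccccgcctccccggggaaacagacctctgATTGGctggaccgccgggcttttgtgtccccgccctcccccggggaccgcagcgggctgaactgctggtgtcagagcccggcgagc
Whether these boxes bear on the changes of the transcripts was not tested. A match of letters is no measurement of a bound factor.

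The 6 libraries held 35076835 to 42616061 counted reads, and every pair of replicates differed by more than sampling noise (chi-square per degree of freedom of 5.43 to 17.5). Reads from mitochondrially encoded genes made up 3.18 to 3.71% of the WT libraries and 5.07 to 6.24% of the Delta-TRRAP libraries. EP400 transcripts, which the endogenous and exogenous copies share, averaged 5057 ± 277 normalized counts in WT and 5574 ± 1238 in Delta-TRRAP (SD, n = 3 each) and did not pass the test (edgeR quasi-likelihood, Benjamini-Hochberg adjusted p = 0.272). The log2 fold change of EP400 was 0.14 and turned on single libraries, since it was 0.29 and passed without Delta-TRRAP replicate 3 (edgeR adjusted p = 0.00149) and was -0.03 without Delta-TRRAP replicate 2. All 10 erythroid markers were tested, 5 of them higher and 3 lower. Their summed level ran from 5499 to 5534 CPM (counts relative to the library total) in WT and from 4084 to 4169 in Delta-TRRAP. That sum came mostly from TFRC, whose mean fell from 192094 to 90173 normalized counts, and does not show the 5 markers that rose. ALAS2 rose the most, from 1241 to 16645. The labels call the cells lymphoblasts. Of 8 lymphoid markers 5 were tested, MS4A1 was at 0, and the sum of 399 to 415 CPM in WT and 113 to 126 in Delta-TRRAP came mostly from PTPRC. Of 8 fibroblast markers 4 were tested, LUM and PDGFRA were at 0, and the sum rose from between 0.872 and 1.40 to between 24.5 and 25.9 CPM, mostly through COL1A2. The part of these differences, or of the mitochondrial share, in the results below was not tested.

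Most of the 10 transcripts were lower in Delta-TRRAP cells, and DDIT3 went the other way. In RNA of whole cultures, fewer cells that express a gene and less RNA per cell cannot be told apart. With a call that needs an adjusted p of at most 0.01 and a fold change of at least 2, 1 gene was called, PSAT1, which was lower. Among all 19114 genes tested 22.6% were called, 16.5% as higher and 6.08% as lower. By the adjusted p alone 7 of the 10 fell, 1 rose and 2 did not pass, where 58.3% of all tested genes passed, 27.6% as lower and 30.7% as higher. The 3 WT and 3 Delta-TRRAP values did not overlap for 9 of the 10 genes, as for 71.1% of all tested genes. The median log2 fold change (Delta-TRRAP over WT) was -0.36 over the 10 genes and 0.03 over all genes tested. Since these genes are well expressed, the 11459 tested genes that averaged 100 or more normalized counts are the nearer background. In those the median was -0.09, and 40.1% passed as lower, 27.9% as higher and 13.0% were called.

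**Figure D1:**
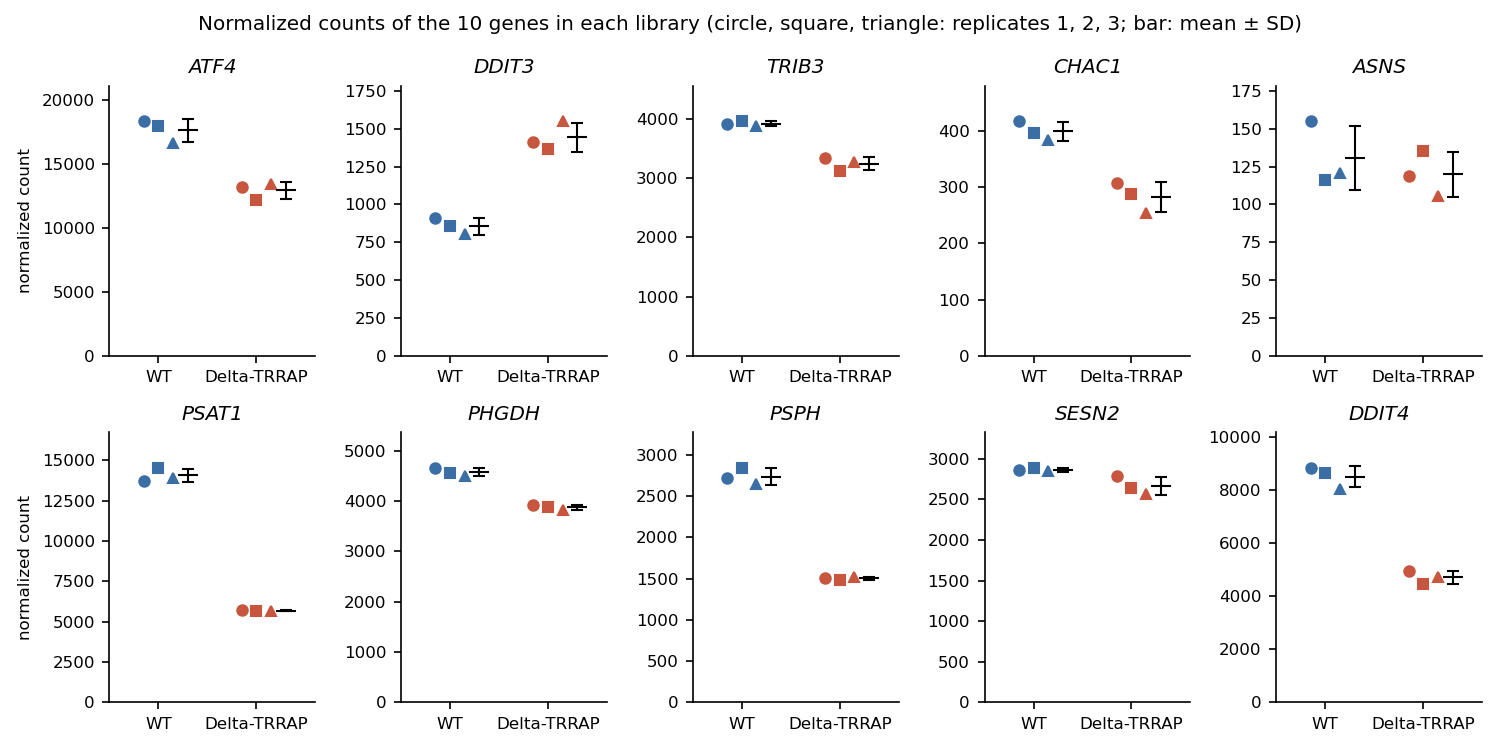
Normalized counts of the 10 genes in each library, one panel per gene, with WT and Delta-TRRAP libraries as points and the group mean ± SD as a bar. PSAT1 sits between 13732 and 14553 in WT and between 5644 and 5706 in Delta-TRRAP, DDIT3 is the gene whose Delta-TRRAP points lie above its WT points, and ASNS is the gene whose groups overlap.

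ATF4 itself, on chromosome 22 (chr22:39519695-39522683, plus strand), encodes the factor that gives the response its name. Its normalized counts were 18325, 17942 and 16586 in the WT libraries and 13201, 12191 and 13389 in the Delta-TRRAP libraries. Every Delta-TRRAP library lay below every WT library, and the mean fell by 26.6%, from 17618 ± 913 to 12927 ± 645 (SD, n = 3 each). The log2 fold change was -0.45 ± 0.06 (SE, edgeR adjusted p = 4.37e-06), and it stayed between -0.49 and -0.40 when each library was left out in turn.

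DDIT3 encodes CHOP, a C/EBP-family factor that ATF4 induces and that is linked to cell death under lasting stress (chr12:57516588-57521737, minus strand). It read 909, 855 and 802 normalized counts in WT and 1409, 1369 and 1550 in Delta-TRRAP. The lowest Delta-TRRAP library thus exceeded the highest WT library, and DDIT3 was the only one of the 10 genes that rose. The mean went from 855 ± 53.6 to 1443 ± 95.0 (SD, n = 3 each), an increase of 68.7% with a log2 fold change of 0.75 ± 0.06 (SE, edgeR adjusted p = 6.13e-08). This rise is below the 2-fold limit. The gene overlaps MARS (MARS1) on the opposite strand, and the counting used strand. Of its 1307 exon bases 1202 (92%) belong to DDIT3 alone, and the remainder is shared with the same-strand gene AC022506.1. The counting mode drops reads that fall in exons of both, and AC022506.1 itself held 0 reads in every library.

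TRIB3 encodes a pseudokinase that ATF4 and CHOP induce and that dampens their activity in return (chr20:362835-397559, plus strand). The WT libraries gave 3910, 3962 and 3881 normalized counts and the Delta-TRRAP libraries 3336, 3117 and 3281. The groups were apart by more than their spread, although the mean fell by 17.2% (log2 fold change -0.27 ± 0.05, SE, edgeR adjusted p = 0.000154). With scaling by library size alone the value was -0.14 and no longer passed (adjusted p = 0.0224, same edgeR test). Such scaling moved the median of all tested genes from 0.03 to 0.17, so relative to that median TRIB3 was about as low in both.

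Serine synthesis branches off glycolysis in 3 steps, and the 3 enzymes fell by different amounts. PHGDH carries out the first step, the oxidation of 3-phosphoglycerate, and lies on chromosome 1 (chr1:119648411-119744218, plus strand). It read 4661, 4561 and 4501 normalized counts in WT and 3923, 3874 and 3829 in Delta-TRRAP. The mean fell by 15.3%, the smallest change of the 7 lower genes that passed (log2 fold change -0.24 ± 0.05, SE, edgeR adjusted p = 0.000352), and it did not pass with upper quartile or library size scaling.

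PSAT1, the aminotransferase of the second step, showed the largest change of the 10 genes (chr9:78297125-78330093, plus strand). Its normalized counts were 13732, 14553 and 13939 in WT and 5706, 5644 and 5672 in Delta-TRRAP. The Delta-TRRAP libraries differed from each other by very little, with a coefficient of variation of 0.546%, and all stood far below WT. The mean fell by 59.7%, from 14075 ± 427 to 5674 ± 31.0 (SD, n = 3 each), with a log2 fold change of -1.31 ± 0.05 (SE, edgeR adjusted p = 4.60e-12) that ranged from -1.34 to -1.30 with each library left out.

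PSPH, the phosphatase that releases serine in the last step, lies on chromosome 7 (chr7:56011051-56051604, minus strand). It gave 2718, 2841 and 2640 normalized counts in WT and 1511, 1480 and 1513 in Delta-TRRAP. No value of either group came near the other group, and the mean fell by 45.1% (log2 fold change -0.86 ± 0.05, SE, edgeR adjusted p = 8.09e-10). Its copy PSPHP1 held 262 to 288 reads in WT and 225 to 258 in Delta-TRRAP, and reads matching both places were discarded by the authors.

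ASNS, asparagine synthetase and a classic ATF4 target, could be judged least well (chr7:97851677-97872542, minus strand). It read 155, 116 and 121 normalized counts in WT and 119, 136 and 106 in Delta-TRRAP. These values overlap, and the difference did not pass (log2 fold change -0.12 ± 0.14, SE, edgeR adjusted p = 0.465). Without WT replicate 1, its highest library, the value was 0.01. Only 100 to 153 raw reads per library stood behind it, the fewest of the 10 genes. Of its 4896 exon bases 2481 (50.7%) belong to ASNS alone, since the remainder is shared with the same-strand gene AC079781.5, and the counting mode drops reads that fall in exons of both. AC079781.5 itself held 2, 1 and 1 reads in WT and 19, 17 and 19 in Delta-TRRAP, and the pseudogene ASNSP1 held 391, 425 and 410 in WT and 568, 540 and 585 in Delta-TRRAP. The ASNS count is therefore uncertain as a measure of ASNS transcripts.

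CHAC1 encodes an enzyme that breaks down glutathione and is a sensitive reporter of ATF4 and CHOP (chr15:40952962-40956512, plus strand). Its normalized counts were 418, 396 and 385 in WT and 307, 288 and 255 in Delta-TRRAP. The groups were separate, with the widest spread among Delta-TRRAP libraries of any gene here but ASNS (coefficient of variation 9.28%). The mean fell by 29.1%, from 399 ± 16.7 to 283 ± 26.3 (SD, n = 3 each), with a log2 fold change of -0.49 ± 0.08 (SE, edgeR adjusted p = 9.04e-05).

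SESN2 and DDIT4 restrain the growth kinase mTORC1, SESN2 as a leucine sensor and DDIT4, also called REDD1, through the TSC complex. SESN2 (chr1:28259518-28282491, plus strand) read 2865, 2888 and 2842 normalized counts in WT and 2787, 2642 and 2567 in Delta-TRRAP. These values were separate but close, and the log2 fold change of -0.10 ± 0.05 (SE) did not pass the test (edgeR adjusted p = 0.0785). Its sign turned to 0.03 with library size scaling.

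DDIT4 (chr10:72273919-72276036, plus strand, a single exon) behaved otherwise. The WT libraries gave 8843, 8637 and 8049 normalized counts and the Delta-TRRAP libraries 4936, 4467 and 4736. All Delta-TRRAP values were well below all WT values, and the mean fell by 44.6%, from 8510 ± 412 to 4713 ± 236 (SD, n = 3 each, log2 fold change -0.85 ± 0.06, SE, edgeR adjusted p = 2.80e-09). DDIT4 and PSPH fell short of the 2-fold limit that PSAT1 passed, and with a limit of 1.5-fold 4 of the 10 genes were called, namely PSAT1, PSPH, DDIT4 and DDIT3.

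**Figure D2:**
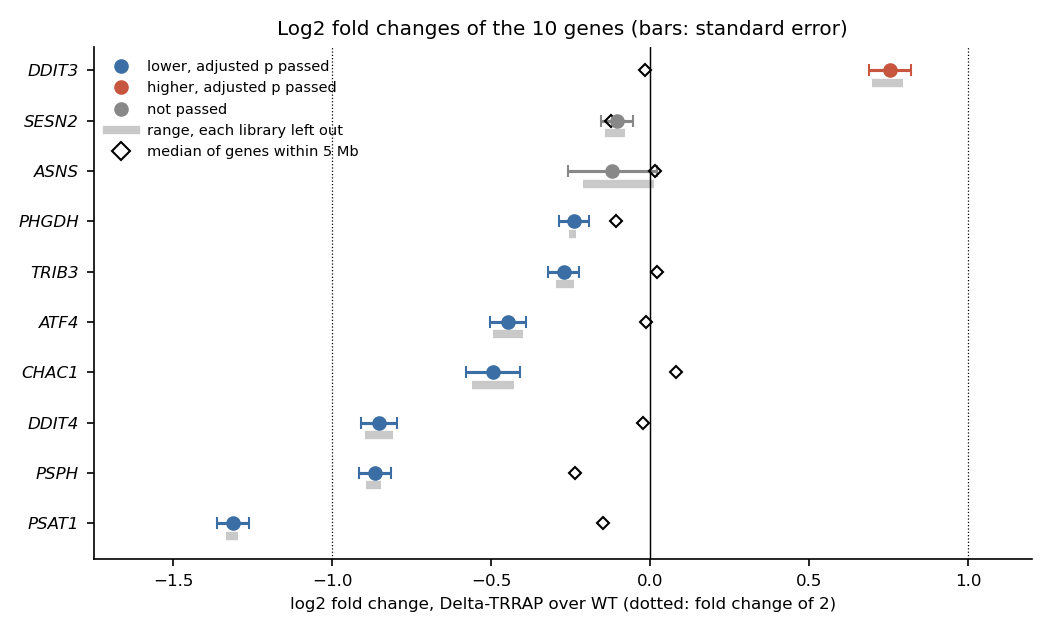
Log2 fold change (Delta-TRRAP over WT) of each gene with its standard error, the range obtained when each library is left out in turn (grey bar) and the median of genes within 5 Mb (open diamond). Values run from -1.31 for PSAT1 to 0.75 for DDIT3, and the medians of the neighbouring genes stay between -0.24 and 0.08.

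Clones of a cancer line can differ in copy number along a chromosome, so each gene was set beside the tested genes within 5 Mb on either side that averaged 100 or more normalized counts. The medians of these neighbours ran from -0.24 around PSPH to 0.08 around CHAC1. None of the 8 neighbours of PSAT1 (median -0.15) and none of the 11 neighbours of PSPH (median -0.24) had a lower log2 fold change than the gene itself. Around DDIT4, 7.69% of 65 neighbours were lower than it (median -0.02), and around ATF4 16.8% of 101 (median -0.01). For DDIT3, 89.4% of 94 neighbours lay below it (median -0.02). Around CHAC1 11.4% of 79 neighbours were lower than it. TRIB3 and PHGDH, which passed as lower, stood out less: 33.3% of 45 neighbours (median 0.02) and 31.0% of 29 (median -0.11) lay below them. SESN2 sat near the middle of its 113 neighbours, whose median was -0.12, and 45.35% of the 86 neighbours of ASNS were lower (median 0.01).

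The libraries of a group differed from each other in the same direction for several of the genes. WT replicate 3 was the lowest of its group for 8 of the 10 genes and the highest for none, and Delta-TRRAP replicate 1 was the highest of its group for 6. The coefficient of variation ran from 0.814% (SESN2) to 16.2% (ASNS) in WT and from 0.546% (PSAT1) to 12.4% (ASNS) in Delta-TRRAP. Leaving out any 1 library gave 1 gene called and 8 passing the adjusted p in each case.

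To compare the genes with each other, counts were divided by the exon length of the gene and scaled to the same sum in each library. On this scale ATF4 and PSAT1 led in WT, at 647 ± 27.8 and 612 ± 21.8 (SD, n = 3 each), and their libraries overlapped, so their order cannot be told. DDIT4 followed at 386 ± 15.2, above TRIB3 at 114 ± 1.49, PSPH at 95.0 ± 3.44 and SESN2 at 79.4 ± 0.850. DDIT3 at 62.8 ± 3.29, PHGDH at 47.8 ± 0.345, CHAC1 at 18.7 ± 0.584 and ASNS at 2.56 ± 0.390 closed the order, and none of these other neighbours in the order overlapped.

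In Delta-TRRAP the length-scaled order began with ATF4 at 490 ± 18.7, which now stood apart from PSAT1 at 255 ± 7.89. DDIT4 was next at 221 ± 12.3. DDIT3 had moved from the seventh to the fourth place, at 109 ± 3.85, above TRIB3 at 97.7 ± 3.79, while PSPH had moved from the fifth to the seventh at 53.9 ± 1.38. SESN2 at 76.4 ± 5.11 lay between them, and PHGDH at 41.8 ± 1.70, CHAC1 at 13.7 ± 1.64 and ASNS at 2.44 ± 0.365 came last. No neighbours in this order overlapped. All annotated exons enter the length, so a gene with many alternative exons such as PHGDH (9187 exon bases) is read too low, and with only the bases that belong to ASNS alone its level was 4.82 in WT and 4.60 in Delta-TRRAP, a choice made after the data were seen.

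**Figure D3:**
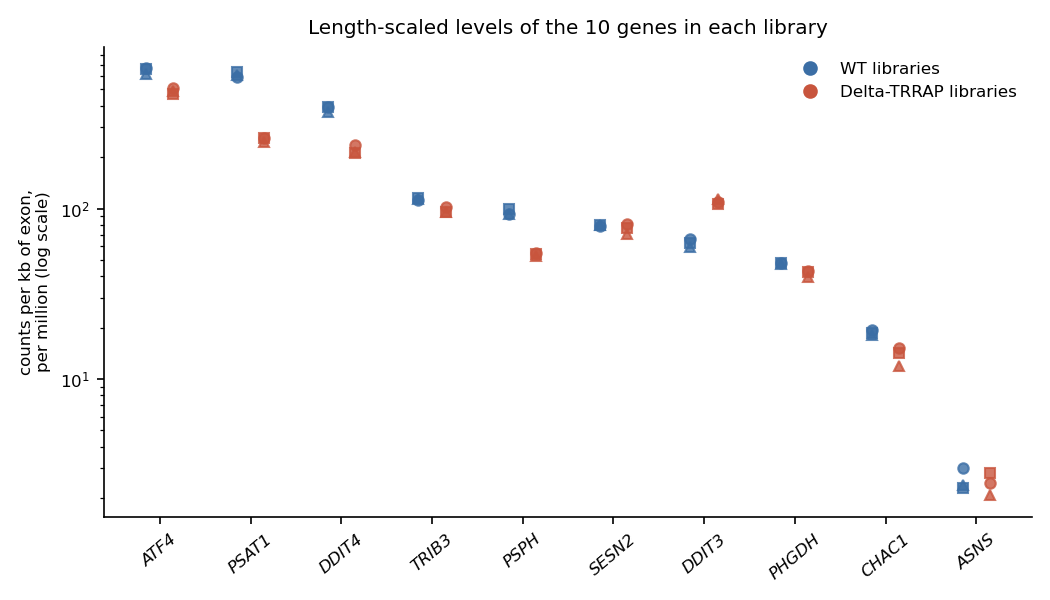
Length-scaled levels (counts per kilobase of exon, scaled to the same sum in each library, log axis) of the 10 genes in WT and Delta-TRRAP libraries, ordered by the WT level. The levels span from 647 for ATF4 to 2.56 for ASNS in WT, and DDIT3 crosses above TRIB3, SESN2 and PSPH in Delta-TRRAP.

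The rest of the pathway was read from 8 lists of named genes, which hold 135 further genes counted once, 127 of them tested. Of these 127, 60 fell and 23 rose by the adjusted p, and the median log2 fold change was -0.18. The called genes numbered 13, with 7 lower and 6 higher. Of the 11459 tested genes averaging 100 or more normalized counts, 40.05% passed as lower, 27.91% as higher, and 12.96% were called. Among all tested genes 27.6% passed as lower, 30.7% as higher, and 22.6% were called. These shares are also the background for each list below, and no list was tested against them. At the input of the pathway, the list of eIF2 alpha kinases, phosphatase subunits and eIF2B subunits had 4 genes that rose and 5 that fell of 16 tested, over a range from -0.86 to 0.58 (median 0.02). GCN1 (-0.86, edgeR adjusted p = 4.55e-08) and EIF2B1 (-0.76, edgeR adjusted p = 4.62e-09) changed the most, both falling, and were named after their values were seen. EIF2AK1, the heme-sensing kinase HRI, read 13017, 13967 and 13534 normalized counts in WT and 20403, 20989 and 19253 in Delta-TRRAP. All 3 Delta-TRRAP values were higher, with a log2 fold change of 0.58 ± 0.05 (SE, edgeR adjusted p = 1.17e-07). The other kinases differed by less. PERK (EIF2AK3) fell by 0.26 on the log2 scale (edgeR adjusted p = 0.00537), which did not pass without WT replicate 2, WT replicate 3, Delta-TRRAP replicate 1 or Delta-TRRAP replicate 3 (adjusted p = 0.0112 to 0.0295), nor with the replicate number as a block (adjusted p = 0.0111). PKR (EIF2AK2, 0.17) and GCN2 (EIF2AK4, -0.18), the kinase that senses uncharged tRNA, did not pass, and neither did PPP1R15A (0.11), the stress-induced phosphatase subunit GADD34. EIF2AK2 passed without Delta-TRRAP replicate 3 (0.23, edgeR adjusted p = 0.00174), and EIF2AK4 passed without Delta-TRRAP replicate 2 (-0.26, edgeR adjusted p = 0.000896) and with no filter on low counts (-0.21, adjusted p = 0.000883). Over the 6 libraries left out in turn, EIF2AK2 ran from 0.11 to 0.23 and EIF2AK4 from -0.26 to -0.10. With upper quartile scaling, library size scaling or a mean count of at least 50, EIF2AK2 (0.27, 0.30 and 0.24) and PPP1R15A (0.21, 0.24 and 0.18) passed, whereas EIF2AK3 (-0.15, -0.12 and -0.18) did not.

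Among 11 partner and stress regulator genes, 7 fell and 1 rose (median -0.59). CEBPB, a dimer partner of ATF4, averaged 1285 ± 58.4 normalized counts in WT and 741 ± 81.5 in Delta-TRRAP (SD, n = 3 each, log2 fold change -0.80 ± 0.07, SE, edgeR adjusted p = 1.31e-07). CEBPG, another partner, fell by 0.31 on the log2 scale, and the TRIB3 relatives TRIB1 and TRIB2 fell by 0.91 and 0.59. JDP2, a repressor of the same zipper class, was one of 2 called genes and went from 471, 414 and 440 normalized counts in WT to 60.8, 58.5 and 41.3 in Delta-TRRAP (log2 fold change -3.03 ± 0.12, SE, edgeR adjusted p = 1.04e-11). The other called gene was CEBPD (-1.96), named after its values were seen. NUPR1, a small stress-induced nuclear protein, was the gene that rose, from 51.9 ± 13.5 to 91.9 ± 8.28 (SD, n = 3 each). ATF5, which is translated much as ATF4 is, fell by 0.24 on the log2 scale. It did not pass without WT replicate 2 (adjusted p = 0.0141) or Delta-TRRAP replicate 1 (adjusted p = 0.0158), nor with upper quartile scaling, library size scaling or a mean count of at least 50 (adjusted p = 0.0656, 0.133 and 0.0270, all edgeR). ATF3, a factor that ATF4 and CHOP induce, stood at 0.03 and did not pass.

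Downstream of serine, 6 of 10 tested one-carbon enzymes fell and 2 rose (median -0.30). MTHFD2, the mitochondrial folate enzyme most often tied to ATF4, read 24583, 24632 and 22719 normalized counts in WT and 12643, 12115 and 12171 in Delta-TRRAP. The mean fell by 48.7% (log2 fold change -0.96 ± 0.05, SE, edgeR adjusted p = 3.29e-10), close to the 2-fold limit. SHMT2, which splits serine into glycine and a one-carbon unit, fell by 0.34 on the log2 scale. ALDH1L1, the cytosolic formyltetrahydrofolate dehydrogenase, was the called gene of the list and went the other way, from 4.10, 6.70 and 8.10 normalized counts in WT to 426, 478 and 401 in Delta-TRRAP.

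Of 13 tested amino acid transporters 8 fell and 1 rose (median -0.29). SLC38A2, the carrier of small neutral amino acids that responds to amino acid supply, read 24932, 24527 and 24907 normalized counts in WT and 7444, 7918 and 7411 in Delta-TRRAP (log2 fold change -1.71 ± 0.05, SE, edgeR adjusted p = 3.29e-13). Its relative SLC38A1 was also called (-1.47) and was named after its values were seen. SLC7A5, the light chain of the leucine carrier, fell by 0.64 on the log2 scale and SLC7A11, the cystine carrier, by 0.29, while their shared heavy chain SLC3A2 (0.11) did not pass. With library size scaling SLC7A11 no longer passed (-0.15, edgeR adjusted p = 0.0181). SLC3A2 passed with upper quartile scaling, library size scaling or a mean count of at least 50 (edgeR adjusted p = 0.00260, 0.000661 and 0.00623). SLC7A8, another light chain, rose from 763 ± 73.5 to 3802 ± 96.7 normalized counts (SD, n = 3 each, log2 fold change 2.32 ± 0.07, SE).

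The 20 cytosolic aminoacyl-tRNA synthetases, several of which are ATF4 targets, were divided, with 4 that rose and 5 that fell, a range from -0.43 to 0.45 and a median of 0.01. In the list of 31 tested ATF4 targets commonly cited besides the 10 genes, 18 fell and 4 rose (median -0.29), and the list shares genes with the lists above. GPT2, the mitochondrial alanine aminotransferase, fell from 1369, 1223 and 1217 normalized counts in WT to 427, 378 and 383 in Delta-TRRAP (log2 fold change -1.68 ± 0.07, SE, edgeR adjusted p = 1.73e-11). GDF15, a secreted stress hormone, moved the opposite way and by far more, from 1113, 1143 and 1116 in WT to 13732, 12579 and 13076 in Delta-TRRAP, an 11.7-fold rise of the mean (log2 fold change 3.55 ± 0.06, SE, edgeR adjusted p = 5.82e-16). The remaining called genes of this list, named after their values were seen, were ADM2 (-1.08) and GADD45A (1.17). CHAC2, the relative of CHAC1, fell by 0.26 on the log2 scale. It did not pass without WT replicate 1, WT replicate 2 or Delta-TRRAP replicate 1 (edgeR adjusted p = 0.0104 to 0.0209), nor with upper quartile scaling, library size scaling or a mean count of at least 50 (adjusted p = 0.0593, 0.115 and 0.0296).

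In the parallel arms of the stress response, 12 of 19 ER chaperones and ATF6 or XBP1 targets fell and 7 did not pass (median -0.31). HSPA5, the chaperone BiP, fell by 0.31 on the log2 scale, and PDIA4, a protein disulfide isomerase, went from 16275 ± 206 to 6077 ± 255 normalized counts (SD, n = 3 each, log2 fold change -1.42 ± 0.05, SE, edgeR adjusted p = 2.94e-12). Around mTORC1 the genes were divided, with 8 that rose and 6 that fell of 21 tested (median 0.12). SESN3, a paralog of SESN2, read 258, 262 and 264 normalized counts in WT and 820, 1012 and 792 in Delta-TRRAP (log2 fold change 1.74 ± 0.09, SE, edgeR adjusted p = 2.51e-10), and NPRL3 (1.06), a GATOR1 subunit named after its values were seen, was also called. SESN1 (-0.08) did not pass, and DDIT4L, the relative of DDIT4, had too few reads to be tested.

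**Figure D4:**
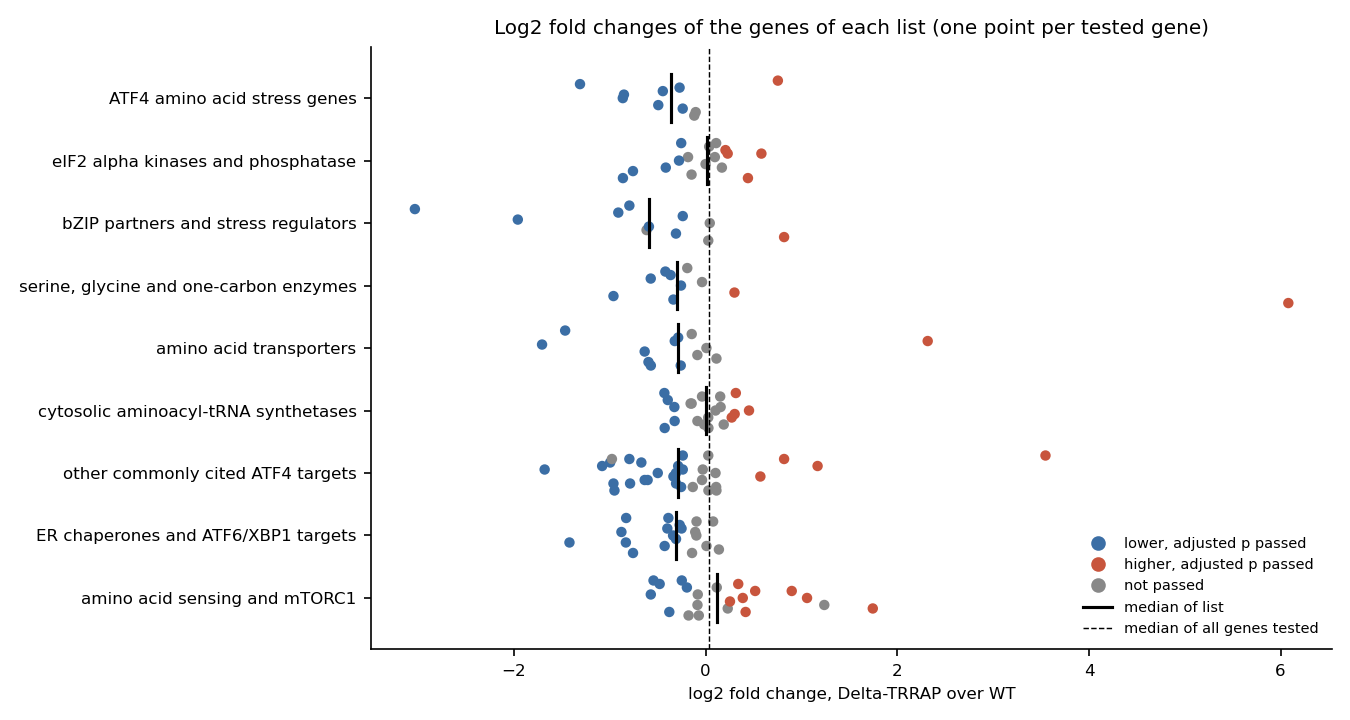
Log2 fold change (Delta-TRRAP over WT) of each tested gene in the 10-gene set and the 8 lists, with the list median as a bar and coloured by whether the adjusted p passed. Medians run from -0.59 for the partner and stress regulators to 0.12 for amino acid sensing and mTORC1, and GDF15 at 3.55 and ALDH1L1 at 6.08 stand apart to the right.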

How the data were processed

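Poly(A)-selected RNA from 6 K562 libraries was sequenced. The deposited files hold counts of reads per gene that the authors made, not normalized. Uniquely placed reads were aligned by STAR on hg38, and HTSeq 2.0.2 assigned them to GENCODE release 32 genes (reverse strand, union mode). A further deposited table of normalized values, with 3 columns from another condition, and the authors' comparison table of log2 fold changes and p-values were not used.

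Groups came from sample titles. Genes averaging at least 5 normalized counts (19114 of 34998 with a read) were tested with edgeR 4.0.16 (R 4.3.3): TMM scaling, group alone in the model, quasi-likelihood test, two-sided, Benjamini-Hochberg over all tested genes. A gene passes at an adjusted p of at most 0.01 and is called with a fold change of at least 2 as well, the thresholds of the study. The SE of a log2 fold change was derived from this test, as its absolute value divided by the square root of the F statistic. The scripts were tested on simulated data. Alternatives included DESeq2 1.42.0 and limma 3.58.1 (voom).

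The genes, lists and tests were chosen with earlier results of these data known. All members were named, with fixed pathway genes and, from each list, the called gene of largest rise and of largest fall (mean normalized count of at least 100). Gene positions and exon lengths are from GENCODE release 44 (GRCh38). Length-scaled levels were scaled over all listed genes found there, tested or not, among them 19041 of the tested genes. Replicate numbers did not pair the libraries: deviations from group means correlated at -0.029 to -0.0095.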

Additional observations from a re-analysis of the deposited data

How the results depend on the processing

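PSAT1, PSPH, DDIT4, ATF4, DDIT3 and CHAC1 kept their direction and passed in every alternative run. With library size scaling TRIB3 (-0.14, adjusted p = 0.0224) and PHGDH (-0.11, adjusted p = 0.0578) no longer passed, and PHGDH also missed with upper quartile scaling (-0.14, adjusted p = 0.0176, all edgeR). Library size scaling turned ASNS to 0.014, SESN2 to 0.029 and SESN1 to 0.051, and upper quartile scaling turned SESN1 to 0.019. By construction these scalings raise all values, since the median of all tested genes moves to 0.17 and 0.13. With each library left out in turn, ASNS ran from -0.21 to 0.013, ATF3 from -0.017 to 0.050 and EP400 from -0.026 to 0.29. The calls among all genes numbered 1964 with a mean count of at least 50 (fewer genes tested) and 6750 with a fold limit of 1.5, under which 4 of the 10 genes were called. The limit on the mean count also recomputed the scaling on the genes kept. That raised the values of all 10 genes, with ATF4 at -0.37, SESN2 at -0.03 and DDIT3 at 0.83. Of the tRNA synthetases 14 passed with library size scaling (the cause was not tested) or with an adjusted p of 0.05. The replicate block gave 4184 calls and 10479 genes passing, against 4322 and 11149 without it, with 1 of the 10 genes called and 8 passing, and PSAT1 at -1.31. Of the 10 genes and the pathway genes followed through the alternative runs, EIF2AK3 was the one whose pass was lost with the block. The numbers do not pair the libraries. Depth limits ASNS most, at 100 to 153 reads.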
